A study of Mus musculus with 2 samples.

Results

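The 35 genes described here are mouse neural progenitor and neuronal genes, chosen by name, out of 21935 gene symbols measured by RNA-Seq of polyadenylated RNA. Earlier results of these data were known when the genes were chosen, which limits each comparison with all expressed genes. 34 were found under their own symbol, and *Map2* was found under an older symbol, *Mtap2*, through its RefSeq accession. Both libraries were made from the mouse ES cell line R1, kept for 72 h on gelatin or in low-attachment dishes, in medium from which the self-renewal cytokine LIF was left out. shKdm5b ES cells carried a lentiviral short hairpin RNA (shRNA) against *Kdm5b*, which encodes a demethylase of histone H3 lysine 4, and shLuc control ES cells carried one against luciferase. Each condition had 1 library, so no difference has a replicate check, and library and condition cannot be told apart. Transduced ES cells were selected with puromycin, and stocks were grown on irradiated mouse embryonic fibroblasts. Read totals were 78172700 for shLuc and 72702700 for shKdm5b, and the 35 genes held 23873 and 24079 of these reads. The level of *Kdm5b* itself was 104 RPKM (reads normalized to transcript length and sequencing depth; 51378 reads) in shLuc ES cells and 3.01 RPKM (1377 reads) in shKdm5b ES cells, a log2 ratio of -5.07.

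When ES cells leave self-renewal, cells that receive no signal towards other fates tend to take a neural path. SOX and PAX transcription factors mark the dividing neural progenitor, proneural basic helix-loop-helix factors such as the Neurogenins and NeuroD1 then push it out of the cell cycle, and tubulins, stathmins and adhesion molecules build the axon of the young neuron. Homeobox factors meanwhile assign forebrain, midbrain, hindbrain and ventral identities. In ES cells, many of these genes sit at promoters that carry both H3K4 and H3K27 methylation, the bivalent state, and H3K4 methylation is what KDM5B removes.

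Promoter sequence is shown for the members with the largest called rise and fall on the deposited scale, *Neurod1* and *Tubb3*. It is also shown for *Nes*, the most widely used progenitor marker. Each line gives the 250 bases before the RefSeq start site in GRCm38.p6, 5′ to 3′ on the strand of the gene. Capitals mark the E-box CANNTG, the letters that basic helix-loop-helix factors read, and the SOX core ACAAT on either strand. *Neurod1* lies at chr2:79456637-79456886 on the minus strand, *Nes* at chr3:87970843-87971092 on the plus strand and *Tubb3* at chr8:123411303-123411552 on the plus strand.
Neurod1: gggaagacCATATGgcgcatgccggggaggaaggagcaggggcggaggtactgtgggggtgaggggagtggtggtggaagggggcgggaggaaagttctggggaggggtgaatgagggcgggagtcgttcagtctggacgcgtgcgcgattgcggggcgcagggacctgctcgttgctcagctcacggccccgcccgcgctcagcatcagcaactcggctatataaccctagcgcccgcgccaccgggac
Nes: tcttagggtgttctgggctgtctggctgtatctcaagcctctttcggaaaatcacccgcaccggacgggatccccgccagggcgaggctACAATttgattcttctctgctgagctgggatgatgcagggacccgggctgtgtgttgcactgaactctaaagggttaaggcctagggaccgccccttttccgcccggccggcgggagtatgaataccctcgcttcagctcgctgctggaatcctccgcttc
Tubb3: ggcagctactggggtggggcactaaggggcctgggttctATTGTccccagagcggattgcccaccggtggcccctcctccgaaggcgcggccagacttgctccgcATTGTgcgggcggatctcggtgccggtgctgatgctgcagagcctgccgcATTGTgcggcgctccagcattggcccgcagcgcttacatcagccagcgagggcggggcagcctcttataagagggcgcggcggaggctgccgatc

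The window of *Neurod1* held 22 CpG dinucleotides and 1 E-box, that of *Nes* held 15 CpG and 1 SOX core, and that of *Tubb3* held 21 CpG and 3 SOX cores. RefSeq promoters were matched for 27 of the 35 members (33 promoters). Their median was 15 CpG in 250 bases with a GC content of 59.6%, against 6 CpG and 52.4% over 32851 promoters. An E-box was present in 39.4% of the member promoters and in 66.2% of all promoters. The SOX core was present in 36.4% and 27.7%, and the octamer ATGCAAAT, the site of POU factors, in 1 member promoter (*Neurog1*, 3.03%) and 1.60% of all. Both strands were searched. *Neurod1*, *Tubb3* and *Nes* all hold at least the members' median number of CpG, and they differ in the marked letters. These matches describe letters only.

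Of the 35 members, 16 reached an RPKM above 1 in either library and are called expressed here. The other 19 stayed at or under 1 RPKM in both. A gene was called higher or lower when its RPKM differed by more than 1.5-fold. By that rule *Neurod1*, *Nes*, *Irx3* and *Sox1* were higher in shKdm5b ES cells (4 of 16, 25%), where 16.6% of all 11804 expressed genes were called higher. *Tubb3*, *Ncam1* and, on the deposited scale but not after the GC correction described with the GC values, *Sox3* were lower (3 of 16, 18.8%), against 32.8% of all expressed genes. The remaining 9 lay within 1.5-fold. With the libraries scaled to the same median log2 ratio, a shift of -0.17, 8 members were higher and 3 lower, where 22.5% of all expressed genes were higher and 25.9% lower. The log2 ratio, computed as log2(RPKM + 0.1) and so compressed at low RPKM, had a median of 0.42 over the 16 members and -0.21 over all expressed genes. A level above that of shLuc ES cells was seen for 13 of the 16 (81.2%), and for 39.6% of all expressed genes. These 13 include *Gap43*, whose levels were nearly equal, and *Irx3* and *Elavl4*, which passed 1 RPKM in shKdm5b ES cells alone. Over genes above 1 RPKM in both libraries it was 11 of 14 members and 41.1% of all genes. In bulk RNA, fewer cells of a type and less RNA per cell cannot be told apart.

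**Figure D1:**
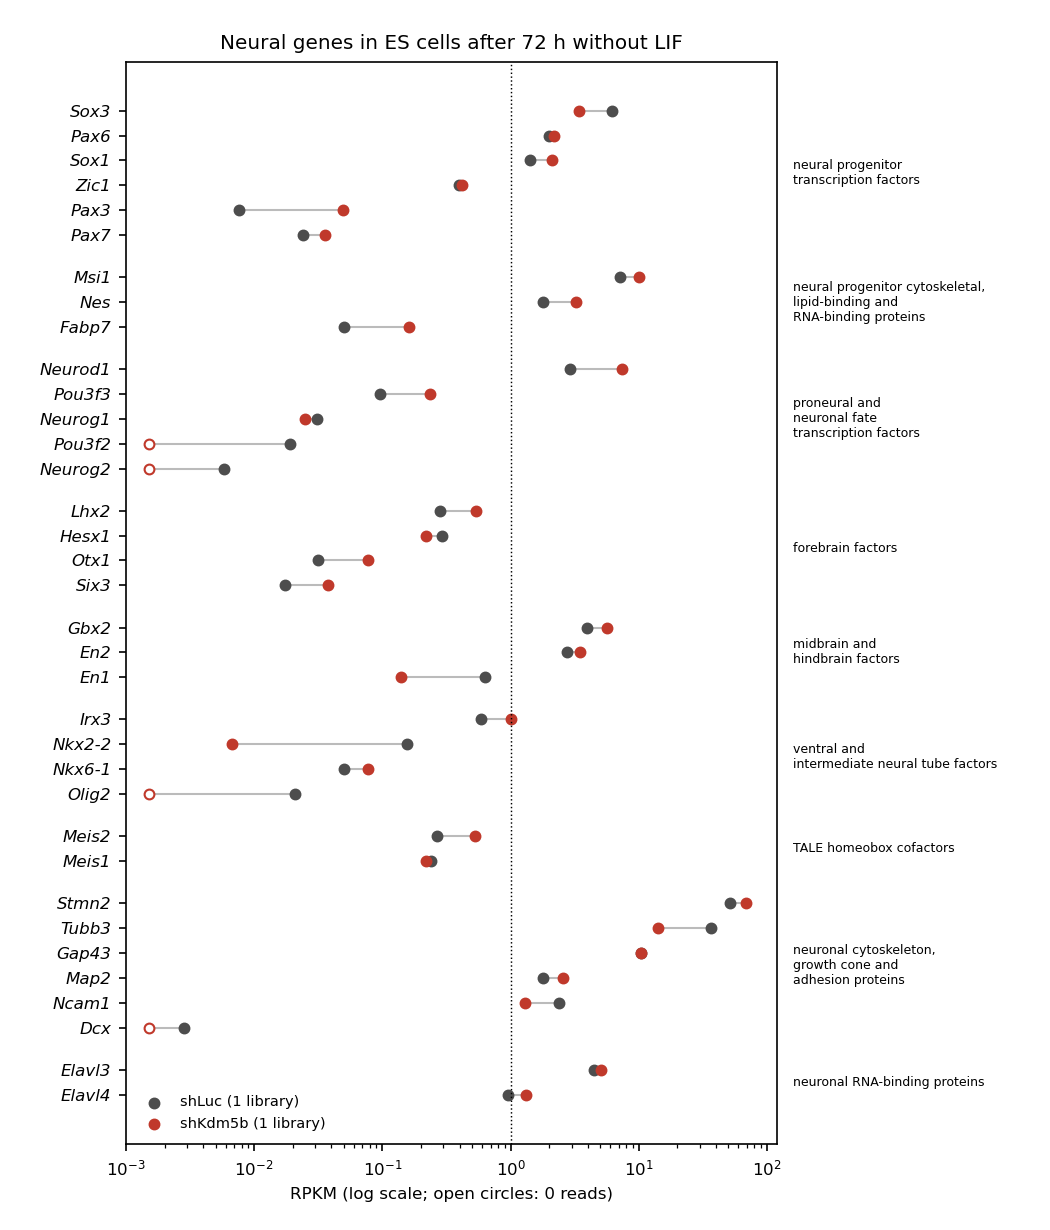
RPKM of each of the 35 neural genes (log axis) in the shLuc library (grey) and the shKdm5b library (red), grouped by role, with 1 library per condition and the dotted line at 1 RPKM. Open circles mark 0 reads. *Stmn2*, at 52.0 and 69.1 RPKM, stands at the right edge, and the genes left of the dotted line are mostly regional and proneural transcription factors.

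Among the progenitor transcription factors, *Sox1* and *Sox3*, both SOXB1 factors that hold neural cells in the progenitor state, differed in opposite directions as deposited, but not after the GC correction, which turned *Sox3*. *Sox1*, one of the earliest markers of neural commitment, was at 1.41 RPKM (445 reads) in shLuc ES cells and 2.12 RPKM (621 reads) in shKdm5b ES cells. Its ratio of 1.50 (95% counting interval 1.33 to 1.70, exact Clopper-Pearson, which covers counting error only) lay just past the threshold. *Sox3*, which is also active in the epiblast, was at 6.24 RPKM (1007 reads) and 3.42 RPKM (513 reads). On the deposited scale its level in shKdm5b ES cells was 1.83-fold lower (interval 1.64 to 2.03). *Pax6*, the eye and forebrain progenitor factor, differed little, at 2.01 and 2.18 RPKM (401 and 405 reads), and its interval of 0.944 to 1.25 spans 1. The zinc finger factor *Zic1* stayed at 0.393 and 0.415 RPKM (103 and 101 reads). *Pax3* and *Pax7*, markers of dorsal progenitors and neural crest, were close to absent, with 2 and 12 reads for *Pax3* and 8 and 11 reads for *Pax7*.

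Of the 3 progenitor proteins that are not transcription factors, *Nes* was called higher. *Nes* encodes Nestin, the intermediate filament of neural stem cells. It was at 1.78 RPKM (851 reads) in shLuc ES cells and 3.24 RPKM (1443 reads) in shKdm5b ES cells, 1.82-fold higher (interval 1.67 to 1.99). *Msi1*, which encodes the RNA-binding protein Musashi, was at 7.18 RPKM (871 reads) and 10.1 RPKM (1136 reads). Its ratio of 1.40 (interval 1.28 to 1.53) did not pass 1.5. *Fabp7*, the lipid-binding protein of radial glia, had 3 and 9 reads, too few to place it (interval 0.805 to 18.5).

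*Neurod1*, which drives neuronal differentiation downstream of the Neurogenins, had the largest ratio among the expressed members as deposited. Its level was 2.91 RPKM (567 reads) in shLuc ES cells and 7.36 RPKM (1334 reads) in shKdm5b ES cells, 2.53-fold higher (interval 2.29 to 2.80). On that scale only 2.47% of all expressed genes had a larger log2 ratio. After the GC correction *Irx3*, *Nes*, *Gbx2*, *Sox1* and *Msi1* had larger ratios than the 2.09 of *Neurod1*. The Neurogenins that stand above it in the cascade were barely detected, *Neurog1* with 4 and 3 reads and *Neurog2* with 1 and 0 reads. Their difference was not detectable at this depth. In mouse annotation 13.0% of the *Neurod1* transcript overlaps exons of *Cerkl* on the same strand or of a lincRNA on the other. *Cerkl* had 8 and 11 reads in these libraries. Of the POU factors of neuronal fate, *Pou3f2* had 2 and 0 reads. *Pou3f3* had 23 and 52 reads (0.0960 and 0.233 RPKM), a ratio of 2.43 with an interval of 1.46 to 4.16.

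**Figure D2:**
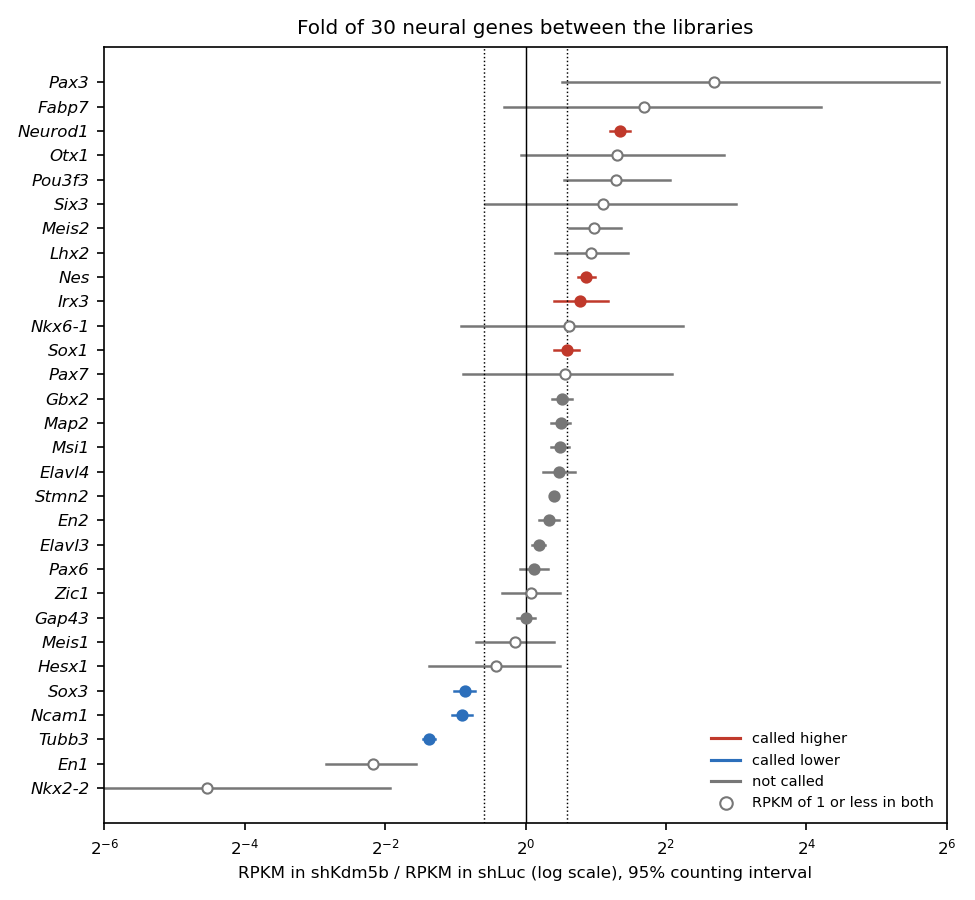
Ratio of RPKM in shKdm5b over shLuc ES cells (log2 axis) for the 30 neural genes with 10 or more reads in all or an RPKM above 1, with 95% counting intervals as bars and dotted lines at 1.5-fold in either direction. *Neurod1* at 2.53 is the highest of the filled points, those expressed, and *Tubb3* at 0.386 the lowest. Open points carry few reads and wide bars.

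The regional factors were mostly low. *Gbx2*, which sets the hindbrain side of the midbrain-hindbrain boundary and is also active in ES cells, was at 3.93 RPKM (653 reads) in shLuc and 5.64 RPKM (871 reads) in shKdm5b ES cells, a ratio of 1.43 (interval 1.29 to 1.59). An opposite-strand transcript overlaps 44.3% of the *Gbx2* transcript in the annotation, and no source used here states that the counting used strand, so reads of the pair cannot be told apart. *En2*, a midbrain and cerebellum factor, was at 2.78 RPKM (768 reads) and 3.50 RPKM (900 reads), a ratio of 1.26 (interval 1.14 to 1.39). Neither of them was called. Its paralogue *En1* went the other way, from 0.631 RPKM (126 reads) to 0.140 RPKM (26 reads), 4.51-fold lower (interval 2.94 to 7.17) at a level below 1 RPKM in both libraries. *Irx3*, an intermediate neural tube factor, was at 0.591 RPKM (95 reads) and 1.02 RPKM (152 reads), 1.72-fold higher (interval 1.32 to 2.25). It counts as expressed through the shKdm5b library alone, so only a higher value could have been called.

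The ventral neural tube factors besides *Irx3* were near the limit of detection. *Nkx2-2*, which patterns the most ventral progenitors, had 25 reads in shLuc and 1 read in shKdm5b ES cells. An opposite-strand transcript, *Nkx2-2os*, overlaps 13.1% of the *Nkx2-2* transcript in the annotation. *Nkx6-1*, of motor neuron progenitors, had 7 and 10 reads, and *Olig2*, of motor neuron and oligodendrocyte progenitors, had 4 and 0 reads. At these depths 3 reads on *Olig2* correspond to 0.0157 RPKM in shLuc and 0.0169 RPKM in shKdm5b ES cells. The difference in *Olig2* was not detectable.

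None of the forebrain factors *Lhx2*, *Hesx1*, *Otx1* and *Six3* was expressed. *Lhx2*, needed for eye and cortex, had 50 and 89 reads (0.280 and 0.536 RPKM), a ratio of 1.91 with an interval of 1.34 to 2.76. *Hesx1*, an anterior repressor that is also present in ES cells, had 26 and 18 reads, *Otx1* had 7 and 16 reads and *Six3*, an eye field factor, had 5 and 10 reads, and all 3 intervals span 1. Of the TALE homeobox cofactors, *Meis2* had 97 and 178 reads, a ratio of 1.97 (interval 1.53 to 2.55), while *Meis1* had 63 and 53 reads and an interval of 0.616 to 1.32.

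Counted together, 14 of the 19 members at or under 1 RPKM had 10 or more reads over both libraries. The interval lay above 1 for 4 of the 14 (*Lhx2*, *Meis2*, *Pou3f3* and *Pax3*), where it did so for 14% of the 4307 genes of this kind. It lay below 1 for 2 (*En1* and *Nkx2-2*), against 37.8% of such genes, and spanned 1 for 8. The other 5 members (*Neurog1*, *Neurog2*, *Pou3f2*, *Olig2* and *Dcx*) had fewer reads.

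The genes of the neuronal cytoskeleton, growth cone and cell surface held the most abundant members, and their levels diverged. *Stmn2*, a stathmin that regulates microtubules in growing axons, was at 52.0 RPKM (7736 reads) in shLuc ES cells and 69.1 RPKM (9564 reads) in shKdm5b ES cells. Its ratio of 1.33 (interval 1.29 to 1.37) is narrowly counted and was not called. *Tubb3*, the beta-III tubulin used as a neuronal marker, was at 36.4 RPKM (4898 reads) and 14.0 RPKM (1758 reads). It was 2.59-fold lower (interval 2.45 to 2.74), the largest fall among the expressed members as deposited. *Gap43*, a growth cone protein, was level at 10.4 RPKM in both libraries (1060 and 987 reads), with an interval of 0.917 to 1.09. *Map2*, the dendritic microtubule protein, was at 1.81 RPKM (767 reads) and 2.56 RPKM (1011 reads), a ratio of 1.42. *Dcx*, doublecortin, the microtubule protein of migrating neuroblasts, had 2 and 0 reads. *Stmn2* and *Tubb3*, the most abundant members, therefore differed in opposite directions.

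*Ncam1*, the neural cell adhesion molecule, was at 2.41 RPKM (1165 reads) in shLuc ES cells and 1.29 RPKM (580 reads) in shKdm5b ES cells, 1.87-fold lower (interval 1.69 to 2.07). It has 3 RefSeq entries in the files. The entry of 6985 bases gave 1171 and 590 reads, much like the 6184-base entry used here. The entry of 4885 bases gave 416 and 144 reads, 2.69-fold lower with an interval of 2.22 to 3.27, which does not overlap that of the 6184-base entry. The entries share exons, so their reads are not independent, and they were read as levels of each entry only. An antisense gene, *Gm11149*, overlaps 6.84% of the *Ncam1* transcript and had 74 and 17 reads.

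The neuronal RNA-binding proteins of the Hu family, which stabilise neuronal mRNAs, lay within 1.5-fold as deposited. *Elavl3* was at 4.45 RPKM (1749 reads) in shLuc and 5.07 RPKM (1851 reads) in shKdm5b ES cells, a ratio of 1.14 (interval 1.07 to 1.22). *Elavl4* was at 0.959 RPKM (282 reads) and 1.33 RPKM (364 reads), a ratio of 1.39 (interval 1.18 to 1.63). Neither of them was called.

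The log2 ratio of all genes fell as the GC content of the transcript rose, and the expressed neural members lie on the GC-rich side. Their median GC content was 54.8%, against 50.5% over the expressed genes, and 10 of the 16 were above the latter. A curve of log2 ratio on GC content was therefore taken out of the values. *Nes*, at 55.5% GC, then had a ratio of 2.78, *Irx3*, at 62.5% GC, had 3.31, *Sox1* had 2.44 and *Neurod1*, at 43.6% GC, had 2.09. With this correction *Gbx2* (2.55), *Msi1* (2.37), *En2* (1.97) and *Elavl3* (1.63) were called higher too. This makes 8 of the 16 members higher, where 18.9% of 11535 expressed genes were, and 2 lower, where 18.7% were. The members lower on the corrected scale were *Ncam1*, 1.75-fold, and *Tubb3*, 1.54-fold.

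*Sox3* and *Elavl4* changed sign with this correction, and of them only *Sox3* had been called. *Sox3* has the highest GC content of the expressed members, 66.4%, and the curve gives genes of that content a log2 ratio of -1.07. Its log2 ratio was -0.85 as deposited and 0.20 after the correction, so no direction is given for *Sox3* apart from the scale it was measured on. *Elavl4*, with the lowest GC content of 38.5%, went from a log2 ratio of 0.43 to -0.09. The median log2 ratio of the 16 members was 0.59 on the corrected scale, against -0.02 over the expressed genes. The cause of the relation with GC content was not tested.

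**Figure D3:**
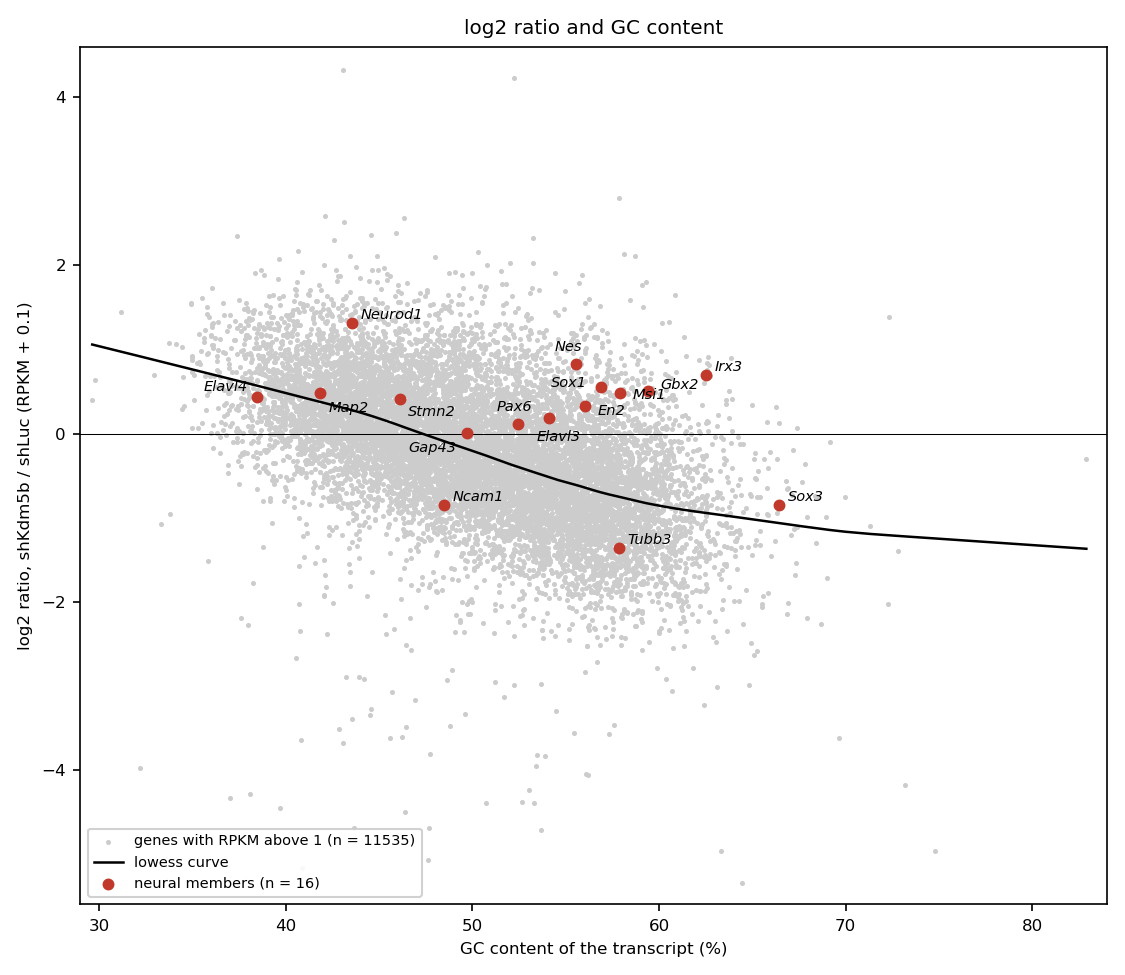
Log2 ratio of shKdm5b over shLuc (RPKM + 0.1) against transcript GC content in percent for 11535 genes with an RPKM above 1 (grey) and the 16 expressed neural genes (red), with the lowess curve in black. *Nes*, *Sox1*, *Msi1*, *Gbx2*, *En2* and *Irx3* lie well above the curve, *Tubb3* and *Ncam1* below it, and *Sox3* close to it.

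**Figure D4:**
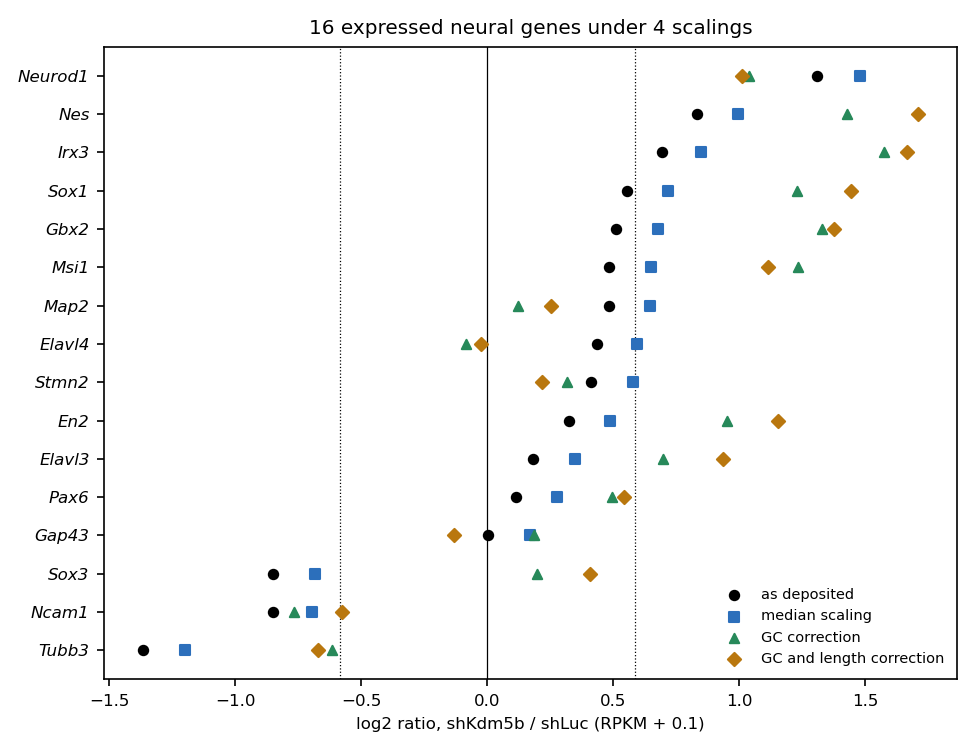
Log2 ratio of the 16 expressed neural genes as deposited, with both libraries scaled to the same median, after the GC correction and after GC content and length were both corrected for, with dotted lines at 1.5-fold. *Neurod1*, *Nes* and *Irx3* stay above the upper line and *Tubb3* below the lower one under all 4, while *Sox3* moves from -0.85 to 0.20 under the GC correction.

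Other neural genes, from lists that hold no member, were read in the same way. Of 30 further progenitor genes 19 were expressed, with a median log2 ratio of 0.20. The 3 called higher made up 15.8%, against 16.6% of all expressed genes, and the 4 called lower 21.1%, against 32.8%. *Cdh2*, N-cadherin, the adhesion molecule of neuroepithelium, was at 1.45 and 3.68 RPKM, 2.54-fold higher. *Crabp2*, a retinoic acid carrier, was 2.18-fold higher (79 and 160 reads), and the Notch ligand *Dll1* was 1.82-fold higher (1104 and 1870 reads). The SOXC factor *Sox4* was 3.02-fold lower, at 37.8 and 12.5 RPKM, and *Crabp1* 2.59-fold lower, at 9.17 and 3.55 RPKM. The lower calls also held the zinc finger factors *Zic5*, 1.60-fold, and *Gli2*, 1.53-fold, on the deposited scale. With the GC correction *Gli2* changed sign, from a log2 ratio of -0.60 to 0.12, and *Zic5* came to -0.48. After this correction 7 of the further progenitor genes were higher and 2, *Sox4* and *Crabp1*, lower. Over all expressed genes 18.9% were higher and 18.7% lower on that scale.

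Of 30 further neuronal genes 14 were expressed, with a median log2 ratio of -0.49 as deposited and -0.14 after the GC correction. *Nnat*, an imprinted gene of the developing brain, was called higher, at 3.68 and 26.2 RPKM. Lower calls made up 42.9% of the 14, against 32.8% of all expressed genes. The 6 lower genes were *Dpysl3* (2.34-fold), an axon guidance effector, the adhesion molecules *Nrcam* (1.92-fold) and *L1cam* (1.51-fold), the synaptic vesicle protein *Syp* (1.85-fold), and the neurofilament genes *Ina* (1.64-fold) and *Nefl* (1.57-fold). *Nrcam* (1.30 and 0.674 RPKM) and *L1cam* (1.15 and 0.760 RPKM) passed 1 RPKM in shLuc ES cells alone, so only a lower value could have been called. With RPKM above 1 required in both libraries, 4 of the list were lower, where 29.6% of all such genes were. *Tubb3* and *Ncam1* stand beside the lower adhesion and cytoskeletal genes in direction, and *Stmn2* and *Map2* do not. After the GC correction 3 of the further neuronal genes were higher and 2 lower, where 18.9% and 18.7% of all expressed genes were. *Ina*, *Syp*, *L1cam* and *Nefl* came within 1.5-fold, and *Dpysl3* and *Nrcam* were still lower.

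*Rest* encodes the repressor that keeps neuronal genes silent outside neurons. It was at 55.3 RPKM (18450 reads) in shLuc ES cells and 37.2 RPKM (11536 reads) in shKdm5b ES cells, 1.49-fold lower (interval 1.45 to 1.52) and just short of the threshold. With 7 partners it made a list of 8 expressed genes, 1 of them higher (*Hdac2*, 1.68-fold) and 2 lower (*Ehmt2*, 2.52-fold, and *Hdac1*, 1.63-fold), named here after their values were seen. The share of lower calls over all expressed genes was 32.8%. After the GC correction 0 genes of this list were called in either direction, with log2 ratios of 0.52 for *Hdac2*, -0.48 for *Ehmt2* and -0.50 for *Hdac1*.

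**Figure D5:**
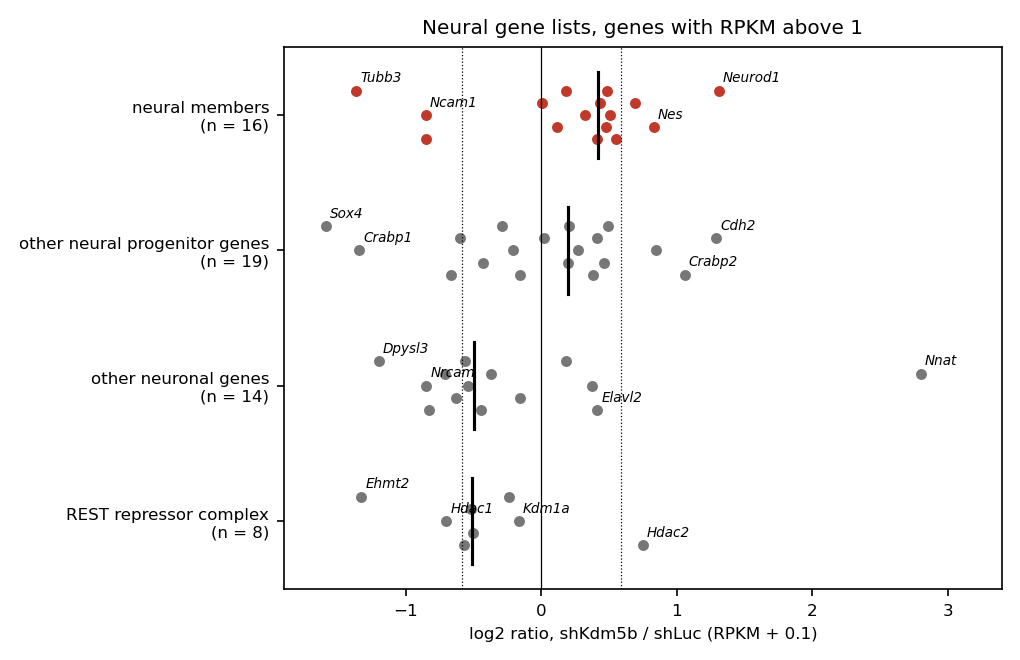
Log2 ratio of shKdm5b over shLuc (RPKM + 0.1) for the expressed genes of 4 lists, 1 point per gene, spread vertically for visibility only, with the median as a bar and dotted lines at 1.5-fold. The medians are 0.42 for the 16 neural members, 0.20 for the 19 other progenitor genes, -0.49 for the 14 other neuronal genes and -0.51 for the 8 genes of the REST repressor complex. After the GC correction, which is not drawn, they are 0.59, 0.31, -0.14 and -0.33 in the same order.

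Markers of other cells were examined beside these results. Of 8 ES cell markers all were expressed in both libraries, with a summed level of 2243 RPKM in shLuc and 2338 RPKM in shKdm5b ES cells. *Dppa5a* alone held 1096 and 1651 RPKM of it and was called higher, and the other 7 summed to 1147 and 687 RPKM. *Pou5f1* and *Esrrb* (1.95-fold) were called lower. Over all expressed genes 16.6% were called higher and 32.8% lower. After the GC correction the log2 ratio was -1.03 for *Pou5f1* and -0.31 for *Esrrb*, which came within 1.5-fold. *Pou5f1* was at 619 and 182 RPKM, *Nanog* at 90.2 and 85.0 RPKM and *Sox2*, shared by ES cells and neural progenitors, at 237 and 272 RPKM. No neural member reached the level of *Nanog* in either library. Of 10 fibroblast markers, which feeder cells would carry, 2 were expressed, with sums of 6.54 and 6.82 RPKM, and *Col1a1* was at 0.474 and 0.395 RPKM. The expressed ones were *Thy1*, at 4.08 and 4.59 RPKM, and *Fbln2*, called lower at 1.05 and 0.381 RPKM. *Fbln2* passed 1 RPKM in shLuc ES cells alone, so only a lower value could have been called. Of 10 neural crest and glial markers 3 were expressed (sums of 26.7 and 21.5 RPKM, mostly *Foxd3*, which ES cells also express). *Sox10* was at 0.339 and 0.274 RPKM. *Ngfr* was called lower (1.56-fold) as deposited. Its log2 ratio was -0.61 as deposited and 0.14 after the GC correction, so no direction is given for *Ngfr* apart from the scale. Of 12 mesoderm and endoderm markers 3 were expressed, 1 higher (*Eomes*, 1.65-fold) and 2 lower (*Gata4*, 4.78-fold, and *Gata6*, 3.89-fold), with sums of 9.20 and 6.53 RPKM. *Gata4* (2.58 and 0.539 RPKM) and *Gata6* (1.01 and 0.258 RPKM) passed 1 RPKM in shLuc ES cells alone. Only a lower value could have been called for them. After the GC correction the log2 ratio was 1.43 for *Eomes*, -1.44 for *Gata4* and -1.11 for *Gata6*. Endoderm markers under 1 RPKM were lower too, *Sox7* with 206 and 6 reads, *Sox17* with 60 and 4 reads and *Afp* with 65 and 0 reads. The mesoderm gene *T*, Brachyury, had 6 and 47 reads. These were named after their values were seen. The part of other cell types in the neural values was not tested.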

How the data were processed

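RNA-Seq of shLuc and shKdm5b R1 ES cells at 72 h without LIF was used, with 1 library per condition. For each RefSeq transcript entry the authors deposited a whole-number read count, the transcript length (another column) and the RPKM value they computed from both. Bowtie 0.12.7, CASAVA 1.0 and the mm8 build are named in the submitters' processing notes. The counting program and its use of strand are not given in the sources used here. Library totals follow from read count, length and RPKM. The deposited read alignments were not used.

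Members and gene lists were chosen with earlier results of these data known. For a symbol with several entries, the one with the highest mean RPKM was kept. A gene was called where its RPKM ratio passed 1.5 and either library had it above 1 RPKM, the thresholds of fold and RPKM in the study. The study also required an edgeR FDR below 0.001, which was not part of these calls. Log2 ratios used a pseudocount of 0.1. Intervals (95%, exact Clopper-Pearson, SciPy 1.17.1) came from the reads of both libraries. No p-value is given, since a dispersion cannot be estimated from 1 library per condition. An exact test of the read counts with edgeR 4.0.16 (R 4.3.3) at an assumed dispersion of 0.04 and an FDR of 0.001 served as an alternative and compares the pair of libraries only.

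GC content and overlaps came from GENCODE M21 transcripts of GRCm38, matched by RefSeq accession for 97.7% of the expressed genes and all 35 members. The GC correction was a lowess curve with a fraction of 0.3 (statsmodels 0.14.6). Promoters came from RefSeq (GRCm38.p6). The steps were tested on simulated data. The text names all 35 members, the called genes of the lists of other neural genes, and defining markers. Other calculations used Python 3.11.15, pandas 2.3.3 and NumPy 2.4.6. 1 gene of the lists of other neural genes is not reported here.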

Additional observations from a re-analysis of the deposited data

How the results depend on the processing

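The main counts were 4 members higher and 3 lower. With a pseudocount of 1, 2 members were higher, and 2 other neuronal genes were lower (6 as deposited). Over all expressed genes 13.8% were then higher and 26.5% lower. With the libraries scaled to the same median, 8 members were higher (22.5% of all expressed genes were higher and 25.9% lower). The other progenitor genes were then 5 higher (3 as deposited) and 2 lower (4 as deposited), and 3 other neuronal genes were lower. After the GC correction 8 members, 7 other progenitor genes and 3 other neuronal genes (1 as deposited) were higher, and 2 other progenitor and 2 other neuronal genes were lower. Of all expressed genes 18.9% were higher and 18.7% lower with this correction. With transcript length added to it, 8 members, 8 other progenitor and 2 other neuronal genes were higher, and 2 and 3 of the latter lists were lower. The shares of all expressed genes were then 16.2% higher and 16.6% lower. Without an RPKM threshold, which lets in genes with 1 or 2 reads, 12 of 35 members were higher and 9 lower (17.9% and 39.2% of all genes with reads), other progenitor genes were 8 and 9, and other neuronal genes 6 and 11. At a fold above 2, *Neurod1* was the 1 member higher and *Tubb3* the 1 lower, with 2 other progenitor genes higher and 2 lower and 1 other neuronal gene higher and 1 lower (6.51% and 17.3% of all expressed genes). With edgeR's exact test at the assumed dispersion, 0 members and 0 other progenitor genes were called in either direction, 0 other neuronal genes were lower, and *Nnat* alone was higher. That test called 0.898% of all expressed genes higher and 1.41% lower.

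The median log2 ratio of the members, 0.42, became 0.30 with a pseudocount of 1, 0.59 with median scaling, 0.70 with the GC correction, 0.93 with GC and length (both over the 15 members expressed on those scales) and 0.23 with all 35 members. That of *Kdm5b* became -4.72 with a pseudocount of 1, -4.91 with median scaling and -4.85 with GC and length. *Sox3* turned to 0.20 with the GC correction and 0.41 with GC and length. Over 16 members and 6 alternatives, 47 of 96 values left the counting interval of the deposited value, besides the 2 of *Sox3*. *Neurod1* and *Tubb3* were called in 10 of 11 alternatives, *Nes* in 9, *Ncam1* in 8, *Sox3* and *Irx3* in 7 and *Sox1* in 6. Adding 0.1 to the RPKM before the fold was chosen after seeing the data, and left *Sox1* uncalled. Causes beyond each alternative's construction were not tested. No paired analysis was possible because there was only 1 library of each kind, and no library could be left out for the same reason. Intervals of members with few reads are wide, and no variation between cultures is in them.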

Other observations

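Among the neural genes outside the 35 members that stayed at or under 1 RPKM in both libraries, several had counting intervals away from 1. They were picked after their values were seen, each rests on few reads, and the lists hold others whose intervals span 1. *Sox9*, a progenitor and glial factor, had 17 reads in shLuc and 55 reads in shKdm5b ES cells, a ratio of 3.48 (95% counting interval 1.99 to 6.39). The neurofilament gene *Nefm* had 45 and 157 reads, a ratio of 3.75 (interval 2.68 to 5.35), while the neurofilament gene *Nefl* was called lower. *Isl1*, a LIM factor of motor and sensory neurons, had 52 and 139 reads, a ratio of 2.87 (interval 2.08 to 4.03).

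In the other direction, *Hes5*, a Notch target of progenitors, had 27 and 7 reads, 3.59-fold lower (interval 1.52 to 9.76), although the Notch ligand *Dll1* was called higher. *Rax*, an eye field factor, had 57 and 13 reads, 4.08-fold lower (interval 2.21 to 8.12). *Insm1*, a zinc finger factor of newborn neurons, had 213 and 68 reads, 2.91-fold lower (interval 2.21 to 3.89). *Mapt*, which encodes the microtubule protein tau, had 158 and 63 reads, 2.33-fold lower (interval 1.73 to 3.18). None of these 7 genes changed direction with the GC correction, on which scale *Mapt* and *Insm1* had log2 ratios of -0.61 and -0.54.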
